A study of Mus musculus with 10 samples.

Results

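Epiblast-like cells (EpiLCs) of the mouse embryonic stem cell (ESC) lines E14 and R1 were compared gene by gene: 1 library of E14 EpiLC against 2 libraries of R1 EpiLC, 1 made without and 1 with activin A. The members are gene symbols that reached at least 5 FPKM (fragments per kilobase of transcript and per 1M mapped fragments) in 1 or more of 6 libraries, the 3 EpiLC libraries and the 3 ESC libraries of the same lines (2 of R1 and 1 of E14). They numbered 9997 of 22867 symbols, and 6 of the 10 libraries of the series entered. Just inside the threshold lay Zfp27, whose highest value was 5.00 FPKM, and just outside lay Gstk1 at 4.9964 FPKM. No EpiLC difference was used to choose the members, but a gene could enter through 1 library in which it was high.

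All groups were cell lines of 129SV origin, and the labels name no engineered allele in R1 or E14. The ESCs were held in N2B27 medium to which LIF had been added, together with PD0325901 (0.8 µM), which blocks MEK, and CHIR99021 (3.3 µM), which blocks GSK3. Culture in bFGF plus knockout serum replacement (KSR) turned them into EpiLCs within 48 h, and 1 R1 culture also received activin A (written Actin A in the labels) at 20 ng/ml. For the E14 EpiLC culture the labels are silent on activin A. The 2 R1 EpiLC libraries differ in activin A and are therefore not plain replicates, and every spread between them holds its effect. Libraries of an Otx2-/- line (ESC, EpiLC, and ESC with a tetON Otx2 transgene without and with doxycycline) are given beside some genes. Neither their parent line nor their activin A status is given in the sources used here.

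ESCs in inhibitor medium stand for the naive epiblast of the blastocyst, and EpiLCs for the epiblast shortly after implantation. The passage between them runs on FGF signalling through ERK: naive factors such as Klf4 and Esrrb are shut down, and Otx2, Pou3f1, Fgf5 and the de novo DNA methyltransferases are switched on. Nodal and activin A signal through Smad proteins and support the later epiblast, with Lefty1, Lefty2 and Smad7 among their direct targets. Sublines of E14 in wide use were selected for loss of Hprt, the X-linked purine salvage enzyme.

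E14 EpiLC was the shallowest of the 6 libraries, at an estimated 6.55M fragments. R1 EpiLC with activin A had 16.0M, the one without it more, and the ESC libraries between 10.9M and 20.6M. The estimate takes the lower quartile of the olfactory receptor values above 0 as 1 fragment on a 1 kb transcript. In E14 EpiLC it rests on 53 such values. A 2 kb transcript at 5 FPKM then rested on about 65.5 fragments in E14 EpiLC. R1 ESC replicate 1 stood apart. It differed at least 2-fold from replicate 2 at 835 members that reached 5 FPKM in 1 of the pair, and E14 ESC differed at least 2-fold from replicate 1 at 498 members and from replicate 2 at 59. The R1 EpiLC pair differed at 46 members, and E14 EpiLC differed at 280 from the library without activin A and at 516 from the one with it. These counts leave out 645 members that are hard to read (320 small RNAs, 302 multi-copy or joined entries, 90 under 200 bp and 124 listed at 0 in a library although their median was at least 5 FPKM, with overlaps), so that 9352 usable members remained.

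The markers of the labelled state were high in all 3 EpiLC libraries. The 6 EpiLC and primed epiblast markers summed to 534 FPKM in R1 without activin A, 490 with it and 515 in E14 EpiLC, all 6 above 5 FPKM, while in the ESC libraries the sum lay between 44.7 and 89.1 FPKM. Fgf5, a growth factor of the early epiblast, was at 28.4, 35.8 and 30.4 FPKM in these 3 EpiLC libraries, and Pou3f1, a POU factor of the same stage, at 72.2, 42.0 and 68.9 FPKM. For both genes E14 lay inside the R1 range. Other markers in the sum did not: Dnmt3b was highest in E14 EpiLC, and Otx2 and Krt18 were lowest in it, as given below. Klf4, a naive factor, was at 1.09, 0.84 and 0.905 FPKM against 101, 73.7 and 88.4 FPKM in R1 ESC 1, R1 ESC 2 and E14 ESC. Pou5f1, the core pluripotency factor, was at 525, 548 and 528 FPKM. Endoderm markers (6 genes) summed to at most 1.87 FPKM in EpiLC and fibroblast feeder markers (6 genes) to at most 4.62 FPKM, with 2 or 3 of the feeder genes at 0. Primitive streak markers (5 genes) summed to 6.10, 9.05 and 6.08 FPKM and neural markers (5 genes) to 9.40, 5.62 and 16.0 FPKM, the last of which is E14.

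Lasting line differences were few, and the 2 that limma called among usable members were both X-linked. Hprt (chromosome X, 50341255 to 50374837 on mm9) was at 145 and 113 FPKM in R1 ESC and at 137 and 147 FPKM in R1 EpiLC without and with activin A. In E14 it was at 0.22 FPKM in ESC and 0.176 FPKM in EpiLC. Every R1 library was high and both E14 libraries were near 0. By the depth estimate 1 fragment on a 1 kb transcript is worth about 0.153 FPKM in E14 EpiLC, so the E14 value is about what 1 fragment gives. The difference in EpiLC was -6.92 on log2(FPKM + 1) (SE 0.24, limma adjusted p = 0.00669), in ESC -6.72 (SE 0.24, limma adjusted p = 0.00854) and over both states -6.82 (SE 0.16, limma adjusted p = 0.00057). The first of these ended at limma adjusted p = 0.058 without the R1 EpiLC library lacking activin A and 0.074 without the other, and the ESC call likewise ended without either R1 EpiLC library (0.0705 and 0.059). The call over both states held in the 4 fits that leave out 1 R1 library (limma adjusted p from 0.000951 to 0.012). These log2 values depend on the added 1 FPKM and are no bound.

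The stretch of 250 bases upstream of the annotated start of Hprt is shown because this gene gave the lowest adjusted p over both states, with each GC box (GGGCGG or its complement CCGCCC) in capitals. It is the plus strand of chrX:52987828-52988077 in RefSeq's build GRCm38.p6, not the build of the deposited values.
Hprt upstream: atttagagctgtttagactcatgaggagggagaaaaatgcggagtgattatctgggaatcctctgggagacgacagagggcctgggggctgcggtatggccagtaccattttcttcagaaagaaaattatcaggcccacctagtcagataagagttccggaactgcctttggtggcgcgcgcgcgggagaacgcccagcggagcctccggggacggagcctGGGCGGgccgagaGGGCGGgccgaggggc
It held 2 GC boxes and 17 CpG dinucleotides at 59.6% G and C, and no TATAAA. Of 32851 promoters read over the same length, 32.7% held a GC box, and the median was 6 CpG dinucleotides at 52.4% G and C. For Mid1, the second gene, 3 starts are annotated and none of their upstream stretches held the box. The match is a description of the reference genome. The sequence of this region in E14 itself was not measured.

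Mid1 (chromosome X, 166123179 to 166428729), a microtubule-associated ubiquitin ligase, went the other way. It was at 8.95 and 4.13 FPKM in R1 ESC, 2.89 and 2.62 FPKM in R1 EpiLC, and 261 and 201 FPKM in E14 ESC and EpiLC. The lowest E14 value was far above the highest R1 value. Over both states the difference was 5.47 (SE 0.30, limma adjusted p = 0.0114). Within EpiLC it was 5.75 (SE 0.45) at a limma adjusted p of 0.0643, and within ESC 5.19 (SE 0.45) at 0.0992, so neither state alone passed. The call over both states was lost without R1 ESC replicate 2 (limma adjusted p = 0.0556). G530011O06Rik is listed on the same interval, and without strand information its reads and those of Mid1 cannot be told apart. It was at 14.6 and 7.29 FPKM in R1 ESC, 24.0 in E14 ESC, 4.002 and 4.319 in R1 EpiLC and 21.5 FPKM in E14 EpiLC, which again put E14 highest in each state.

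The Otx2-/- libraries lay on the E14 side at these loci. In the Otx2-/- ESC, EpiLC, tetON without doxycycline and tetON with doxycycline libraries Hprt was at 0.126, 0.166, 0.506 and 0.152 FPKM, and Mid1 was at 286, 285, 293 and 317 FPKM. G530011O06Rik was between 25.1 and 35.2 FPKM in the same 4 libraries. None of the 4 overlapped with any R1 library at the 3 genes. The R1 libraries are the shared comparison for E14 and for Otx2-/-.

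**Figure D1:**
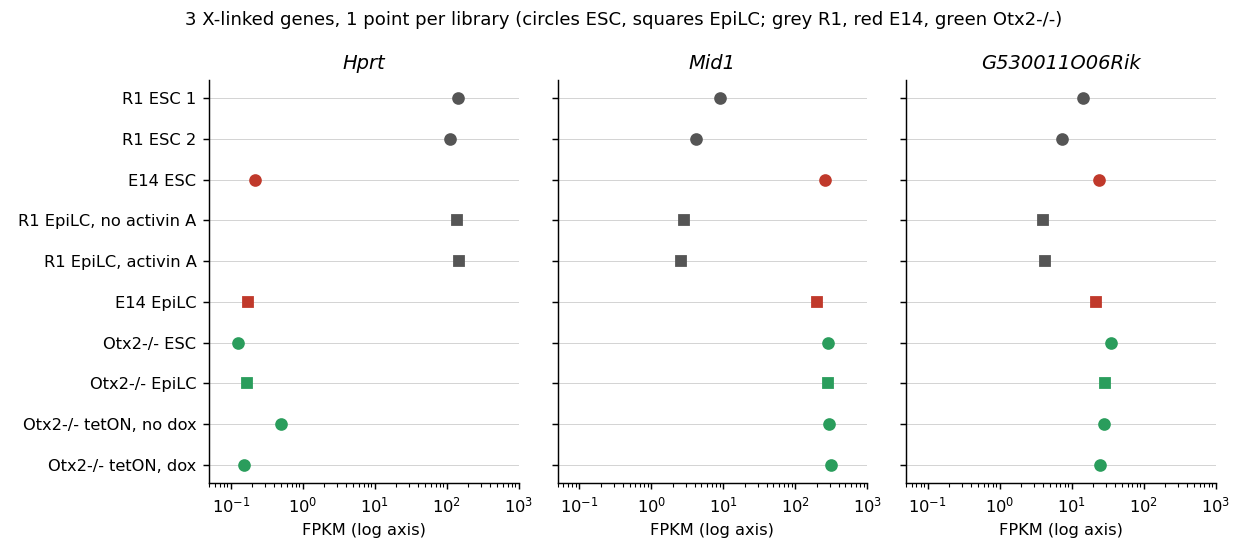
FPKM on a log axis of Hprt, Mid1 and G530011O06Rik in each of the 10 libraries, 1 point per library (circles ESC, squares EpiLC; grey R1, red E14, green Otx2-/-). Hprt lies above 100 FPKM in the 4 R1 libraries and below 1 FPKM in the other 6, and Mid1 lies below 10 FPKM in R1 and above 200 FPKM elsewhere.

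Other genes beside the 2 loci lay closer to R1. Within 1000 kb of Hprt, Phf6 was at 9.93, 11.6 and 10.0 FPKM in R1 EpiLC without and with activin A and in E14 EpiLC, and Gpc3, a glypican of the cell surface, at 22.2, 30.0 and 13.7 FPKM. Gpc4, its neighbour, was at 16.3, 11.8 and 6.42 FPKM. Hccs, a cytochrome c heme lyase that lies next to Mid1, was at 12.5, 12.4 and 15.4 FPKM. Each of these 4 genes was under 2-fold from the nearer R1 EpiLC library.

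Beyond these 2 genes limma made few calls. Its spread was pooled from the R1 ESC pair, at least 2-fold apart at 835 members, and the R1 EpiLC pair, apart at 46. In EpiLC limma called 32 of 12244 genes tested at an adjusted p under 0.05, with 14 higher in E14 (0.114%) and 18 lower (0.147%), of which 29 were small RNAs or entries listed at 0. The usable calls were Hprt, AF357355 and Setd5, of which the last 2 were at 0 in the other 5 libraries tested and are not read as results. In ESC 22 were higher (0.18%) and 5 lower (0.0408%), with Hprt the usable one. Over both states 4 were higher (0.0327%) and 1 lower (0.00817%), and the usable ones were Hprt and Mid1. The test of the line difference in EpiLC less that in ESC called 15 genes higher (0.123%) and 25 lower (0.204%), with AF357355 and Setd5 usable. At an unadjusted p under 0.05 the EpiLC comparison counted 838 genes. Leaving out either R1 EpiLC library gave limma no call in EpiLC (277 genes at an unadjusted p under 0.05 without the one lacking activin A, 193 without the other), and a fit of the 3 EpiLC libraries alone called 103, of which 34 were usable. Since most differences below did not pass in the fit of the 6 libraries, they are given as levels. The adjusted p-values of that fit hold the width of the R1 ESC pair.

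A gene was counted by size when E14 lay at least 1 on log2(FPKM + 1), 2-fold on that scale, beyond both R1 libraries of the state. In EpiLC 105 members lay higher (1.05%) and 256 lower (2.56%). In ESC 62 lay higher (0.62%) and 37 lower (0.37%). Among usable members the EpiLC counts were 66 and 179. Of the 361, 20 lay as far out on the same side in ESC (line genes, 5 usable) and 312 lay within 0.5 of the R1 ESC range in ESC (EpiLC only, 225 usable). Another 19 lay between (14 usable), and 10 lay on the opposite side in ESC (1 usable). The width of the R1 ESC pair bears on this split: without R1 ESC replicate 1 the line genes numbered 45, of which 18 were usable, and without replicate 2 40 and 9. EpiLC-only genes then numbered 215 and 178. Without the R1 EpiLC library lacking activin A, 746 members were counted in EpiLC.

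**Figure D2:**
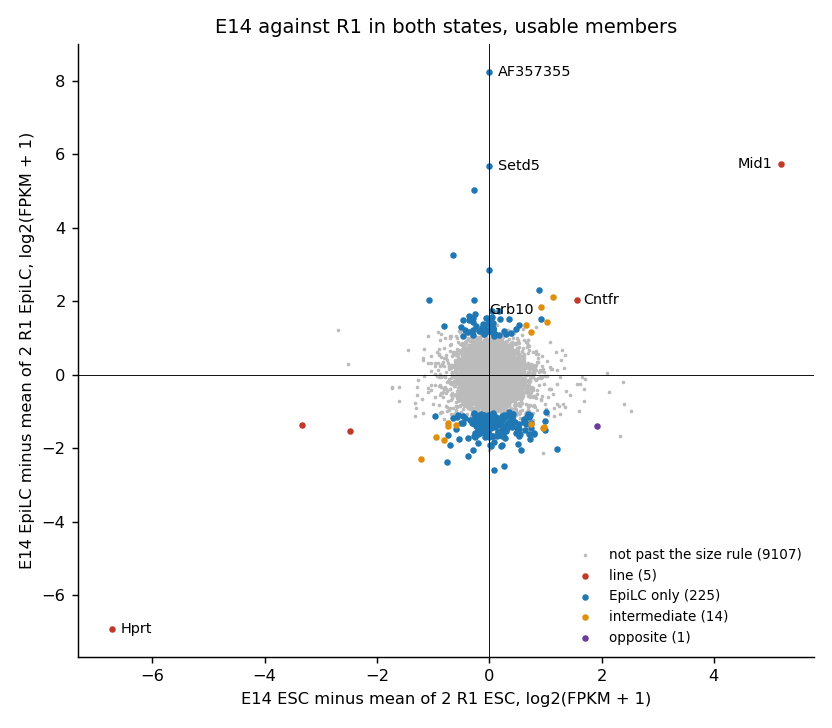
Difference of E14 from the mean of the 2 R1 libraries on log2(FPKM + 1), in ESC (x axis) and in EpiLC (y axis), for the 9352 usable members, 1 point per gene, coloured by class. Hprt and Mid1 lie far out on both axes, and the 225 EpiLC-only genes lie above and below the centre near 0 on the ESC axis.

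The remaining usable line genes had small values. Cntfr, the receptor subunit for ciliary neurotrophic factor, was at 0.921 and 2.42 FPKM in R1 ESC, 6.55 in E14 ESC, 1.60 and 1.57 in R1 EpiLC and 9.61 FPKM in E14 EpiLC. It lay at 4.27 and 17.0 FPKM in Otx2-/- ESC and EpiLC. 1700063D05Rik was at 36.2 and 11.2 FPKM in R1 ESC against 2.82 in E14 ESC, and at 9.93 and 10.5 FPKM in R1 EpiLC against 2.89 in E14 EpiLC. Baz2b, a bromodomain gene, was at 3.43 and 5.77 FPKM in R1 EpiLC and 1.13 in E14 EpiLC, but was listed at 0 in E14 ESC against 8.19 and 10.1 FPKM in R1 ESC. None of the 3 passed limma in EpiLC (adjusted p = 0.663, 0.720 and 0.710).

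Of the EpiLC-only genes, 3 leaders were listed at 0 in the other 5 libraries, which in these tables can also be a failed estimate, so no fold is given. AF357355, an entry inside the Rian locus of chromosome 12 (110842155 to 110899921), was listed at 302 FPKM in E14 EpiLC. It was at 41.9 and 67.3 FPKM in Otx2-/- ESC and EpiLC and at 0 in both tetON libraries. The host, Rian, a maternally expressed noncoding RNA, was itself listed at 0 in R1 ESC replicate 1, and at 70.1, 39.2 and 99.4 FPKM in R1 EpiLC without and with activin A and in E14 EpiLC. Setd5, a chromatin gene on chromosome 6, was listed at 50.4 FPKM in E14 EpiLC and 57.7 FPKM in Otx2-/- ESC, and at 0 in the other 8 libraries. Nav1, a neuron navigator gene, was at 6.21 FPKM in E14 EpiLC, 7.34 in Otx2-/- ESC and 4.83 in the tetON library with doxycycline, and at 0 elsewhere. AF357355 and Setd5 entered limma's test only through the E14 EpiLC library, so its calls for them repeat that 1 value.

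Other EpiLC-only genes were higher in E14 from a measured R1 level. Epc1, a subunit of the NuA4 acetyltransferase complex, was at 5.07 and 5.36 FPKM in R1 EpiLC and 200.1 FPKM in E14 EpiLC, 38.4 times the R1 mean, against 18.5, 9.09 and 10.7 FPKM in R1 ESC 1, R1 ESC 2 and E14 ESC. 1110002B05Rik was at 25.9, 22.9 and 240.5 FPKM in the 3 EpiLC libraries, while its ESC values of 10.0, 75.6 and 17.6 FPKM spread widely within R1. 1600021P15Rik was at 2.35, 1.93 and 14.4 FPKM. Trh, the precursor of thyrotropin-releasing hormone, was at 14.01, 16.81 and 65.73 FPKM, and its R1 ESC values of 764 and 27.0 FPKM were further apart than that. Crct1 was at 1.00, 0.657 and 5.10 FPKM, and Ercc2, a helicase of nucleotide excision repair, at 51.2, 54.5 and 154 FPKM. All 6 lay outside the R1 EpiLC pair by the rule that chose them. No limma adjusted p among them in EpiLC fell below 0.0927, the value of Epc1.

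Genes of FGF signalling stood among those higher in E14 EpiLC. Myc, a growth-promoting transcription factor, was at 8.01 and 6.64 FPKM in R1 EpiLC and 32.7 in E14 EpiLC, with 28.7 and 2.29 FPKM in R1 ESC and 7.17 in E14 ESC. Fgf8 was at 1.45, 2.28 and 6.99 FPKM in R1 EpiLC without and with activin A and in E14 EpiLC, and the related ligand Fgf17 at 2.43, 2.77 and 9.18 FPKM. The feedback inhibitor Spry4 was at 7.73, 6.24 and 18.8 FPKM, and Dusp4, a phosphatase of ERK, at 18.98, 10.47 and 39.98 FPKM. Their fitted differences lay between 1.32 and 2.02 with SEs from 0.30 to 1.37, and the limma adjusted p-values between 0.663 and 0.76 did not pass.

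Over the list of FGF ligands, receptors and ERK targets, 14 of 20 members lay above both R1 EpiLC libraries and 4 lay below both. Of all 9873 members not listed at 0, 4621 (46.8%) lay above both and 3922 (39.7%) below both, the background for the list counts that follow. By size 4 were higher (Myc, Fgf8, Spry4, Dusp4) and 1 was lower. The higher count was 1 with a pseudocount of 5. The lower gene was Ier3, an immediate early gene, at 101, 63.8 and 26.1 FPKM. The median difference was 0.55 in EpiLC and -0.20 in ESC. Over the same 9873 members, 94 were higher by size (0.952%) and 206 lower (2.09%), with medians of 0.03 and -0.04. Dusp6, the standard readout of ERK activity, was at 44.5, 30.1 and 74.7 FPKM and Spry2 at 13.5, 12.1 and 23.7 FPKM, both under the size rule. Etv5 was at 176, 210.2 and 129 FPKM, lower in E14 than in either R1 library. None of the 20 passed limma.

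**Figure D3:**
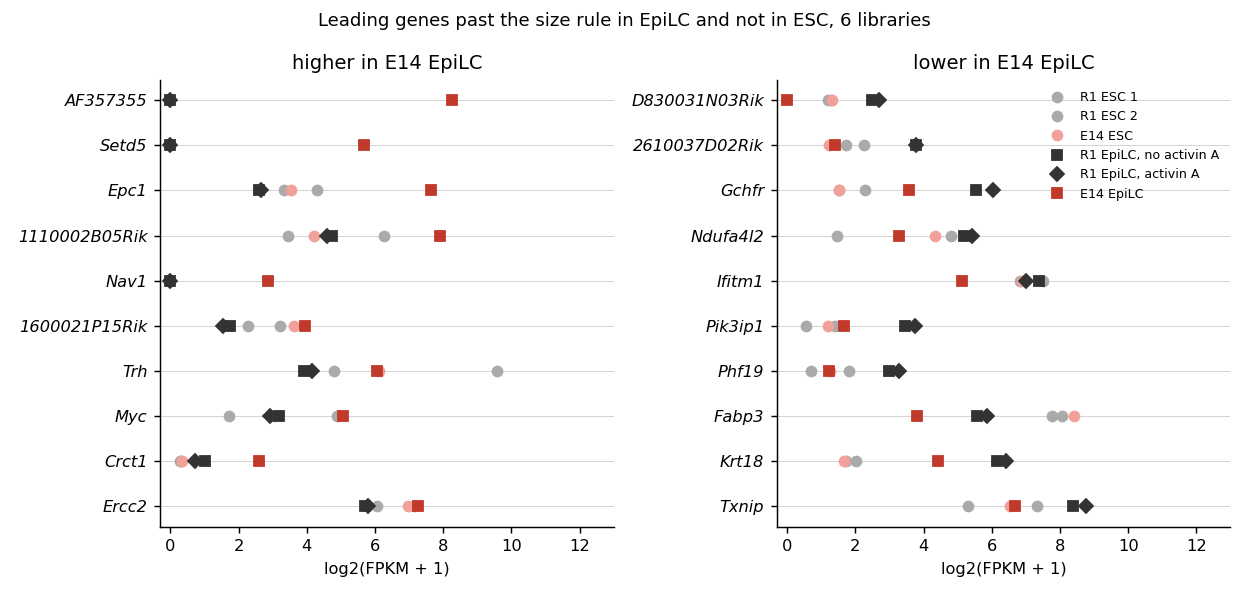
Levels on log2(FPKM + 1) of the 10 genes furthest above (left) and below (right) both R1 EpiLC libraries among usable EpiLC-only genes, 1 point per library (circles ESC, squares and diamonds EpiLC, red E14 EpiLC). By the choice of genes E14 EpiLC stands apart from both R1 EpiLC libraries in every row, and for AF357355, Setd5 and Nav1 the other 5 libraries are at 0.

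The lower EpiLC-only genes were more numerous, 166 against 59 usable. Otx2-/- EpiLC lay on the E14 side in both groups. The genes were chosen by their distance from the R1 EpiLC libraries, which are also the reference for Otx2-/-. The position of Otx2-/- is therefore no separate support. The median of the lower genes was 14.5 and 17.8 FPKM in R1 EpiLC without and with activin A. It was 6.31 FPKM in E14 EpiLC and 6.34 FPKM in Otx2-/- EpiLC. For the higher genes the medians were 6.64, 5.20, 18.1 and 14.1 FPKM in the same order. D830031N03Rik was listed at 0 in E14 EpiLC against 4.59 and 5.42 FPKM in R1 EpiLC. 2610037D02Rik was at 12.7 and 12.7 FPKM in R1 EpiLC and 1.63 in E14 EpiLC, 7.76 times lower than the R1 mean. Gchfr, the feedback regulator of GTP cyclohydrolase, was at 45.6, 64.6 and 10.9 FPKM, and Ndufa4l2, a mitochondrial protein induced in low oxygen, at 35.1, 41.8 and 8.65 FPKM. Pik3ip1, an inhibitor of PI3 kinase, was at 10.0, 12.3 and 2.17 FPKM, and Phf19, a Polycomb accessory protein, at 6.99, 8.64 and 1.32 FPKM. That E14 lay below both R1 EpiLC libraries in these genes follows from the rule that chose them. Fabp3, a fatty acid binding protein, differed from them in its ESC level: it was at 217, 265 and 341 FPKM in R1 ESC 1, R1 ESC 2 and E14 ESC and at 46.3, 56.7 and 13.1 FPKM in EpiLC. Txnip, a glucose-responsive inhibitor of thioredoxin, was at 335, 437 and 101 FPKM, with 38.3, 161 and 92.0 FPKM in ESC. Of these 8 genes the lowest limma adjusted p in EpiLC was 0.0927 (D830031N03Rik, fitted difference -2.58, SE 0.23), and the others ranged from 0.293 to 0.765.

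The course from ESC to EpiLC differed among these genes. Of the 166 lower genes, 56 were at least 2-fold higher in R1 EpiLC than in R1 ESC and under 2-fold apart in E14. Another 38 were under 2-fold apart in R1 and at least 2-fold lower in E14 EpiLC than in E14 ESC. In 30 genes both lines were at least 2-fold higher in EpiLC, in 14 both were lower, and in 26 both were under 2-fold apart. Of the 59 higher genes, 17 were under 2-fold apart in both lines. Another 15 were at least 2-fold lower in R1 EpiLC than in R1 ESC and under 2-fold apart in E14. A further 15 were under 2-fold apart in R1 and at least 2-fold higher in E14, and 9 were higher in both. The class rule, with E14 near R1 in ESC and beyond R1 in EpiLC, sets part of these courses in advance. The same courses were not counted over all members. The R1 ESC level here is a mean of unlike replicates. They were at least 2-fold apart at 60 of the 166 lower genes, with replicate 2 the higher at 59, and at 20 of the 59 higher genes, with replicate 1 the higher at 18. The part of that difference in the classes was not tested.

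Otx2 itself was lower in E14 EpiLC. This homeobox factor, switched on at the exit from the naive state, was at 5.72 and 9.09 FPKM in R1 ESC and 3.96 in E14 ESC, and at 107 and 151 FPKM in R1 EpiLC and 39.9 FPKM in E14 EpiLC. E14 thus reached 0.31 of the R1 EpiLC mean, and it lay below both R1 libraries in each state. The fitted difference in EpiLC was -1.64 (SE 0.37, limma adjusted p = 0.701). In the Otx2-/- EpiLC library 15.7 FPKM were listed, and the deleted part of the gene is not given in the sources used here. On the list of primed and formative epiblast genes 12 of 22 lay above both R1 EpiLC libraries (54.5%, against 46.8% of all members) and 5 below both (22.7%, against 39.7%), with a median of 0.17. By size Otx2 and Krt18 were lower and Wnt8a, a Wnt ligand of the posterior epiblast, was higher at 7.57, 9.80 and 29.1 FPKM in the 3 EpiLC libraries. T, the primitive streak factor, was at most 0.548 FPKM in EpiLC.

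Dnmt3b, a de novo DNA methyltransferase, was at 239, 159 and 337 FPKM in R1 EpiLC without and with activin A and in E14 EpiLC, and Dnmt3a at 69.4, 68.4 and 104 FPKM. The cofactor Dnmt3l was at 111, 82.7 and 195 FPKM. E14 was the highest of the 3 libraries for each of them. Over 9 genes of DNA methylation and demethylation the median difference was 0.43, with 6 above both R1 libraries (46.8% of all members did so), 2 below both (39.7%) and 0 past the size rule. The fitted difference of Dnmt3b, 0.79 (SE 0.67), had a limma adjusted p of 0.784.

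Most naive pluripotency genes were lower in E14 EpiLC than in either R1 EpiLC library. Of 20 genes, 15 lay below both R1 EpiLC libraries (75%, against 39.7% of all members) and 1 above both (Gbx2; 5%, against 46.8%), with a median of -0.39 in EpiLC and 0.11 in ESC. Tfcp2l1, a naive transcription factor, was at 7.44, 8.79 and 3.58 FPKM in the 3 EpiLC libraries and Esrrb, a nuclear receptor, at 17.4, 21.5 and 12.9 FPKM. Nanog, read from an entry joined with Nanogpd, was at 106, 164 and 85.8 FPKM. Fbxo15, an F-box gene of ESCs, was the 1 gene past the size rule, at 46.3, 43.6 and 20.3 FPKM. Sox2, which marks naive and primed cells alike, was at 103, 131 and 69.8 FPKM. None passed limma, and the difference of Esrrb was -0.55 (SE 0.23, limma adjusted p = 0.715).

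Genes of glycolysis and the response to low oxygen were lower in E14 EpiLC with few exceptions. Of 31 genes, 30 lay below both R1 EpiLC libraries (96.8%, against 39.7% of all members), 6 of them past the size rule (Ndrg1, Ddit4, Adm, Ankrd37, Slc2a3 and Egln3), and Hk2 alone lay above both. Ddit4, an inhibitor of mTORC1, was at 305 and 267 FPKM in R1 EpiLC and 97.9 in E14 EpiLC, and 13.8, 18.7 and 14.9 FPKM in R1 ESC 1, R1 ESC 2 and E14 ESC. Adm, the vasodilator peptide adrenomedullin, was at 51.1, 44.5 and 16.5 FPKM in EpiLC and at most 1.72 FPKM in ESC. Slc2a3, a glucose transporter, was at 389, 322 and 132 FPKM in EpiLC and at 230.2, 502 and 451 FPKM in ESC. The glycolytic enzymes Aldoa, at 1689, 1722 and 889.6 FPKM, and Pgk1, at 1054, 1074 and 597 FPKM, were also lower in E14. Ldha, at 1175, 1076 and 986 FPKM, lay closer to the R1 pair.

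The list median was -0.68 in EpiLC (-0.62 against the R1 library without activin A and -0.59 against the one with it) and 0.41 in ESC. The ESC value came from 1 replicate: it was 0.79 against R1 ESC 1 and -0.00 against R1 ESC 2. None of the 31 passed limma. The difference of Ddit4 was -1.53 (SE 0.27) at a limma adjusted p of 0.565 and that of Ndrg1 -1.48 (SE 0.58) at 0.715. In Otx2-/- EpiLC Ddit4 was at 164 FPKM, Adm at 19.6 and Slc2a3 at 199 FPKM. The oxygen level, density and day of the cultures are not given in the labels, and their part was not tested.

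**Figure D4:**
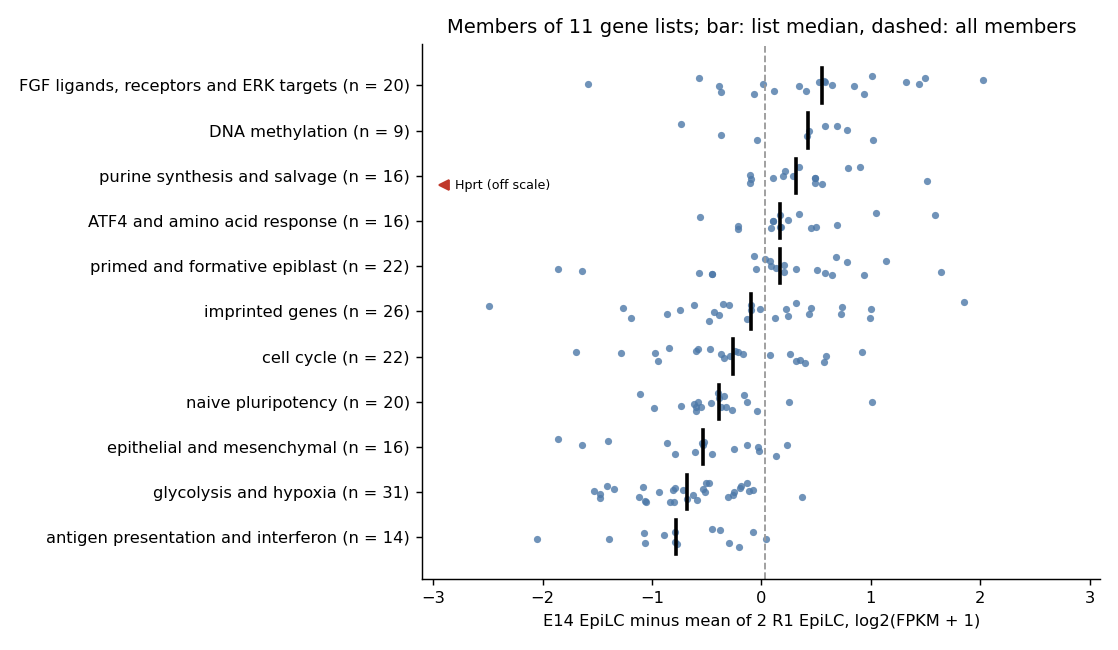
Difference of E14 EpiLC from the mean of the 2 R1 EpiLC libraries on log2(FPKM + 1) for the members of 11 gene lists, 1 point per gene, with the list median (bar) and the median of all members (dashed line). The glycolysis and hypoxia genes and the antigen presentation and interferon genes lie mostly left of 0, with medians of -0.68 and -0.78, and the FGF list lies mostly right of it, at 0.55.

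Antigen presentation and interferon genes were also lower. Of 14 genes 13 lay below both R1 EpiLC libraries (92.9%, against 39.7% of all members), with a median of -0.78 in EpiLC and -0.04 in ESC, and 3 passed the size rule. Ifitm1, an interferon-induced membrane protein, was at 166, 127 and 34.2 FPKM in the 3 EpiLC libraries and at 179, 114 and 116 FPKM in ESC. Its neighbour Ifitm2 was at 339, 361 and 166 FPKM. Psmb8, an immunoproteasome subunit, was at 14.1, 24.4 and 6.47 FPKM in EpiLC and at most 0.038 FPKM in ESC. Tap1, which carries peptides to MHC class I, was at 16.6, 16.4 and 8.45 FPKM, and Irf1 at 76.7, 109 and 52.3 FPKM. B2m, the light chain of MHC class I, lay within the R1 pair at 13.5, 7.56 and 10.5 FPKM. The difference of Ifitm1, -2.06 (SE 0.37), had a limma adjusted p of 0.594, and no gene of the list passed. These list differences were not particular to E14, with the same R1 EpiLC libraries as the shared reference. Otx2-/- EpiLC minus the R1 EpiLC mean had a median of -1.22 on this list. It was -0.35 on the glycolysis and hypoxia list and -0.47 on the epithelial and mesenchymal list. On the FGF, DNA methylation and purine lists it was 0.43, 0.36 and 0.36, and over all members 0.03.

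Several epithelial genes were lower in E14 EpiLC too. Krt18, a keratin, was at 70.8 and 84.6 FPKM in R1 EpiLC and 20.6 in E14 EpiLC, from 2.32, 3.06 and 2.20 FPKM in R1 ESC 1, R1 ESC 2 and E14 ESC. Cldn3, a tight junction claudin, was at 41.0, 42.9 and 12.8 FPKM in EpiLC, and Krt7 at 5.37, 4.44 and 1.22 FPKM. Of the 16 epithelial and mesenchymal genes 12 lay below both R1 EpiLC libraries (75%, against 39.7% of all members) and 2 above both (12.5%, against 46.8%), with a median of -0.53. Cdh1, the epithelial cadherin, was at 135, 121 and 151 FPKM and Vim, a mesenchymal filament, at 39.8, 40.3 and 44.1 FPKM, so the 3 genes past the size rule were 2 keratins and a claudin. The limma adjusted p was 0.331 for Krt18 and 0.234 for Cldn3. The 6 trophoblast markers, which share Krt7 with this list, summed to 24.6 and 22.2 FPKM in R1 EpiLC and 8.22 FPKM in E14 EpiLC, none listed at 0. Tfap2c was at 9.84, 8.83 and 2.14 FPKM, while Cdx2 was at most 0.375 FPKM in EpiLC. In bulk RNA fewer cells of a type and less RNA per cell cannot be told apart, and the part of these markers in the differences was not tested.

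Purine enzymes were looked at because of Hprt. Of 16 genes of purine synthesis and salvage, 11 lay above both R1 EpiLC libraries (68.8%, against 46.8% of all members) and 4 below both, Hprt included (25%, against 39.7%), with a median of 0.31 in EpiLC and -0.04 in ESC. Pfas, an enzyme of de novo synthesis, was the 1 gene higher by size, at 35.6, 42.7 and 113 FPKM in EpiLC and at 124, 53.3 and 154 FPKM in ESC. Atic was at 84.7, 72.9 and 147 FPKM and Ppat, the first committed step, at 38.7, 35.5 and 65.1 FPKM. Aprt, the adenine salvage enzyme, lay within the R1 pair at 127, 93.6 and 125 FPKM. Mthfd2, a mitochondrial enzyme of folate metabolism, was at 10.3, 7.59 and 28.6 FPKM in the 3 EpiLC libraries and headed the list of ATF4 and amino acid response genes, where 12 of 16 lay above both R1 libraries (75%, against 46.8% of all members) and 2 below both (12.5%, against 39.7%), with a median of 0.17. Of these 2 lists limma called Hprt and no other gene.

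H19, an imprinted and growth-restricting noncoding RNA, was at 122 and 22.4 FPKM in R1 EpiLC without and with activin A and 8.55 in E14 EpiLC. The R1 pair was thus itself further apart than E14 was from the nearer library. Grb10, an adaptor that restrains growth factor receptors, was at 8.72, 7.76 and 32.3 FPKM in EpiLC and at 10.1, 13.2 and 22.8 FPKM in R1 ESC 1, R1 ESC 2 and E14 ESC, with E14 highest in each state. Its differences were 1.85 (SE 0.25, limma adjusted p = 0.334) in EpiLC and under 2-fold in ESC. Of 26 imprinted genes 10 lay above both R1 EpiLC libraries and 14 below both (38.5% and 53.8%, against 46.8% and 39.7% of all members), with a median of -0.10. Of 22 cell cycle genes 8 and 14 did so (36.4% and 63.6%), with a median of -0.26. Cdkn1b, the cyclin-dependent kinase inhibitor p27, was at 21.9, 27.4 and 6.87 FPKM in the 3 EpiLC libraries and at 20.7, 20.9 and 17.3 FPKM in ESC.

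A further 14 usable genes met the EpiLC size rule and lay between 0.5 and 1 outside the R1 range in ESC. Beside Grb10 and G530011O06Rik the higher ones were Prtg, Jmjd5 and 2900011O08Rik. Prtg, a cell surface protein of the early embryo, was at 3.09 and 5.87 FPKM in R1 ESC, 9.76 in E14 ESC, 15.3 and 10.1 in R1 EpiLC and 35.5 FPKM in E14 EpiLC. Among the 9 lower ones Fank1 was at 0.602 and 2.87 FPKM in R1 ESC, 0.0777 in E14 ESC, 4.34 and 5.70 in R1 EpiLC and 0.226 FPKM in E14 EpiLC. It was at 0.143 and 0.174 FPKM in Otx2-/- ESC and EpiLC. Sox15, a Sox factor of pluripotent cells, was at 18.7 and 18.1 FPKM in R1 ESC against 10.0 in E14 ESC, and at 19.9 and 29.0 FPKM in R1 EpiLC against 6.37 in E14 EpiLC. Epas1, a hypoxia-inducible factor subunit, was at 14.5, 22.1 and 6.12 FPKM in EpiLC. Il34, Cdhr1 and Htra1 were lower in E14 EpiLC but higher in E14 ESC. Htra1, a secreted protease, was at 14.56, 15.01 and 25.32 FPKM in ESC and 6.86, 8.42 and 2.39 FPKM in EpiLC. None of the 14 passed limma. Rabggtb, a subunit of Rab geranylgeranyl transferase, was the 1 usable gene past the rule on opposite sides, at 99.4, 223 and 566.5 FPKM in ESC and 354, 229 and 108 FPKM in EpiLC.

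Because the labels do not give the activin A status of the E14 EpiLC culture, its levels were placed between the 2 R1 EpiLC libraries. Usable genes at least 2-fold apart between those libraries numbered 49, and E14 lay nearer to R1 with activin A at 28 and nearer to R1 without it at 21. Among the 21 genes higher with activin A it lay nearer the library with it at 14. Among the 28 lower with activin A it was 14 and 14. At 1.5-fold the count turned: E14 lay nearer to R1 with activin A at 64 of 187. It also differed at least 2-fold from R1 without activin A at fewer members (280) than from R1 with it (516). With a single library on each side there is no test of these genes.

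On the list of Nodal and Activin targets 6 of 12 genes lay above both R1 EpiLC libraries (50%, against 46.8% of all members) and 2 below both (16.7%, against 39.7%), with a median of 0.22. Of 15 ligands, receptors and inhibitors 5 lay above both (33.3%) and 7 below both (46.7%), with a median of -0.04. Neither list had a member past the size rule. Lefty1, Lefty2 and Smad7, feedback inhibitors of the pathway, are named after their values were seen. Lefty1 was at 34.3 FPKM in R1 EpiLC without activin A, 111 with it and 140.5 in E14 EpiLC, and Lefty2 at 8.91, 30.6 and 49.9 FPKM. Smad7, an inhibitory Smad, was at 4.08, 13.4 and 16.9 FPKM. For these 3 genes E14 lay above both R1 libraries. Nodal, the ligand itself, was at 30.2, 41.3 and 51.8 FPKM. Other genes placed E14 on the opposite side: Gbx2 was at 18.7, 5.69 and 22.1 FPKM, the kinase Pim2 at 176, 70.2 and 247 FPKM, and Ccnd2, a cyclin higher with activin A in R1, at 4.70, 10.7 and 3.22 FPKM. In Otx2-/- EpiLC Lefty1 was at 199.9 FPKM and Lefty2 at 75.2 FPKM. The fitted difference of Lefty1 from the R1 mean was 1.17 (SE 0.77, limma adjusted p = 0.754). Actr5, Prmt2 and Sec16a, at the low end of the plot of E14 levels against the activin A difference, were at 110.1, 153 and 16.1 FPKM in R1 EpiLC without activin A and at 9.40, 14.5 and 0 FPKM with it. Sec16a was listed at 0 in E14 EpiLC too, and in R1 and E14 ESC, but at 22.1 FPKM in Otx2-/- ESC. Actr5 was also far apart within R1 ESC, at 127 and 7.11 FPKM in replicates 1 and 2, while Prmt2 was at 23.7 and 25.7 FPKM there.

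**Figure D5:**
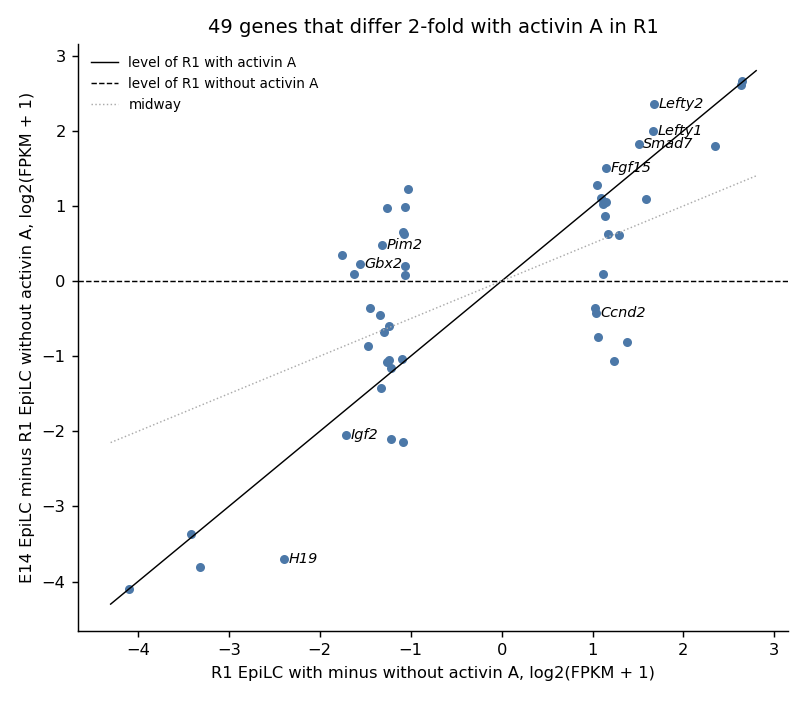
For the 49 usable genes at least 2-fold apart between R1 EpiLC with and without activin A, the x axis gives that difference and the y axis E14 EpiLC minus R1 EpiLC without activin A, both on log2(FPKM + 1), 1 point per gene. Points near the solid line have E14 at the level of R1 with activin A and points near the dashed line at the level without it, and 28 of 49 are nearer the solid line, against 64 of 187 genes when the genes are chosen at 1.5-fold.

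No chromosome stood out as a whole. Over 20 chromosomes with 234 to 785 usable members each, the median difference ran from -0.02 to 0.09 in EpiLC and from -0.08 to -0.02 in ESC, and the share of members past the EpiLC size rule from 1.65% to 3.95%. Without scaling, chromosome X had the only EpiLC median below 0 (-0.02) and the highest share (3.95%, 12 of 304 usable members). With median-ratio scaling the median of all members itself moved from 0.03 to -0.02, so the sign depends on scaling. The Y-linked genes Eif2s3y, Uty and Ddx3y were present in all 3 EpiLC libraries, at 39.7, 37.8 and 36.2 FPKM for Eif2s3y.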

How the data were processed

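RNA sequencing libraries of R1 and E14 ESC and EpiLC (6 libraries) were used, with 4 Otx2-/- libraries given beside some genes. The authors deposited FPKM, 1 value a gene and library. TopHat, Cufflinks and the build mm9 are named in the submitters' processing notes. Versions, annotation and parameters: not given in the sources used here. The protocols in the labels describe no step that marks the strand. Per the labels the cultures were biological replicates, and the p-values measure only the spread between these few libraries. A count model was not applied to FPKM, and depth is an estimate from the values.

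Of 23112 entries 17 exact repeats were dropped and 228 that shared a symbol were summed. The starts of the deposited intervals were raised by 1, since the interval of Hprt then has the length RefSeq gives the gene. Tests used limma 3.58.1 (R 4.3.3, eBayes with a trend, two-sided, Benjamini-Hochberg) on log2(FPKM + 1), over genes that averaged 1 FPKM or more. The lone E14 libraries are assumed to vary like R1, whose EpiLC pair differs by activin A. The limma step was tested on simulated data whose noise was drawn from the R1 EpiLC pair alone and capped. The wider R1 ESC pair was left out, so that test does not check the p-values given here. The pseudocount of 1 makes folds of low genes too small. Named were the markers, genes past limma, the 10 furthest out in each class and direction and up to 4 members of each list, plus further list members chosen after their values were seen. Left out of the ranked part were small RNAs, entries listed at 0, multi-copy or joined entries and those under 200 bp. The members and the 29 gene lists were chosen with earlier results of these data known. Alternatives were other pseudocounts, filters, scalings, size thresholds, fits and libraries left out. Figures were drawn with matplotlib 3.10.9 in Python 3.11.15. 1 gene is not reported here.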

Additional observations from a re-analysis of the deposited data

Results flagged for a closer look

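For 2 usable genes the difference between E14 and R1 in EpiLC was marked as unlike that in ESC, and neither is read as a result. The EpiLC difference exceeded the ESC difference by 8.2451 on log2(FPKM + 1) for AF357355 and by 5.6826 for Setd5. Both genes were listed at 0 in the other 5 libraries, so each value is set by the E14 EpiLC library and the pseudocount, and a 0 in these tables can be a failed estimate. Neither passed limma's test of this difference between states with a pseudocount of 0.1 or among genes that reached 5 FPKM, nor without either R1 EpiLC library.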

How the results depend on the processing

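No paired analysis was possible because replicate numbers are given for R1 ESC alone. Hprt and Mid1 were called over both states under every pseudocount, filter, scaling and trend setting tried. In EpiLC the call of Mid1 was gained with a pseudocount of 5, with median-ratio scaling, in the 3 EpiLC libraries alone and without either R1 ESC library or E14 ESC. Calls in EpiLC numbered 103 in those 3 libraries alone and 0 to 66 with 1 library left out. Calls in ESC numbered 11 among genes at 5 FPKM and 0 to 86 with 1 library left out. Calls over both states numbered 4 to 14 with 1 R1 library left out, and without an E14 library no such contrast can be made. Calls of the difference between states numbered 17 with a pseudocount of 0.1, 5 among genes at 5 FPKM and 0 to 127 with 1 library left out. Leaving out a library changes both the spread and the residual degrees of freedom.

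The counts by size (361 members, 20 line, 312 EpiLC only) became 192, 13 and 159 with a pseudocount of 5, 1270, 47 and 1182 at 1.5-fold, and 97, 10 and 70 at 4-fold. Measured from the R1 mean, 625 members and 63 line genes were counted. Without small RNAs and entries listed at 0, 6 line genes remained. With 1 library left out the ranges were 361 to 746 members, 26 to 45 line genes and 178 to 664 EpiLC-only genes. Genes nearer to R1 with activin A numbered 12 of 19 with a pseudocount of 5 and 64 of 187 at 1.5-fold. The chromosome median furthest from 0 in EpiLC was 0.0885. It was picked anew in each setting, so the values can belong to different chromosomes. They were 0.0688 with a pseudocount of 5, -0.0719 with median-ratio scaling and 0.0916 to 0.0993 without 1 R1 EpiLC library. For 4 markers with differences near 0 the sign turned: Klf4 at 0.15 with quantile normalization, and with 1 library left out Klf4 ranged from -0.13 to 0.050, Fgf5 from -0.23 to 0.10, Pou3f1 from -0.068 to 0.70 and Pou5f1 from -0.053 to 0.0096. Depth limits E14 EpiLC most: a 2 kb transcript at 5 FPKM rests there on about 65.5 fragments. The gene lists were also recomputed with other pseudocounts and scalings, chosen after seeing the data, and the EpiLC medians of the lists printed in the report kept their sign, while that of all members, 0.03, became -0.02 with median-ratio scaling.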
